A study of Sus scrofa with 2 samples.

Results

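Pig chromosome 11 was profiled by array-based comparative genomic hybridization (aCGH) in an angiosarcoma-like liver tumor and in control liver tissue. The chromosome was represented by all probes whose designed position lies on it, which gave 6111 of the 177440 probes on each array. Both arrays carried the same 6111 probes, and 6109 were used on each, without the outlier spots. The tumor group is 1 array with DNA from a micro-dissected, paraffin-embedded angiosarcoma-like tumor of a female pig (*Sus scrofa*). The labels give a single dose of 200 mg/kg diethylnitrosamine (DENA), a carcinogen that is activated in the liver, and resection after 10 months. The paper says that only 1 pig received this dose and does not name the pig behind the tumor array. The control group is 1 array with DNA from non-tumor liver tissue of a female pig, and whether that pig was treated is not clear from the labels. Tissue DNA was labelled with Cy3 and hybridised against Cy5-labelled liver DNA of a female reference. With 1 array per tissue the tissues could not be tested against each other, and the spread over probes or windows describes the array and not the variation between animals. Each array was on its own slide, so that slide and tissue cannot be told apart.

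In aCGH the ratio of the tissue signal to the reference signal at a probe follows the relative number of DNA copies at that position. In a pure diploid sample, 1 added copy gives a log2 ratio of 0.58 and 1 lost copy gives -1.0, and admixed normal cells pull both values towards 0. Pig chromosome 11 has 2 arms and corresponds to the human chromosome that carries the tumor suppressor *RB1*, the brake on entry into the cell cycle. It also carries *FLT1*, a receptor for vascular endothelial growth factor, *COL4A1* and *COL4A2*, collagens of the vessel basement membrane, and the liver-made coagulation factor genes *F7* and *F10*. Of 24 genes listed for tumor suppression, vessels, cell cycle and liver function, 23 were found on chromosome 11 in the RefSeq annotation of Sscrofa11.1. The array files name neither genes nor a genome build, so values were given by designed position, from the first probe at 31451 to the last at 79810895, and were assigned to no gene.

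The level of the whole chromosome was close to that of the autosomes on both arrays. The median log2 ratio of tissue over reference, centred on the median of chromosomes 1 to 18, was 0.05 on the tumor and 0.04 on the control array. The spread between probes was far wider, with an SD of 0.55 over the 6109 tumor array probes and 0.56 over those of the control array. The noise of the whole array, taken from differences between neighbouring autosomal probes, was 0.40 and 0.42. The median background-subtracted signals on the chromosome were 56.1 for the tumor and 93.3 for its reference, against 68.5 and 117 over all autosomes. On the control array they were 39.7 for the tissue and 74.2 for its reference, against 48.6 and 92.3. Accordingly, both channels were well above background for 74.5% of the probes on the tumor array (79.6% over the autosomes) and for 70.4% on the control array (75.9%).

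Along the chromosome the tumor array was low at both ends and high in the middle. The median log2 ratio was -0.22 in the first 10 Mb, 0.04 from 10 to 20 Mb and 0.04 from 20 to 30 Mb. It was 0.25 from 30 to 40 Mb, 0.17 from 40 to 50 Mb and 0.27 from 50 to 60 Mb, and then 0.03 from 60 to 70 Mb and -0.10 from 70 to 80 Mb. The control array was also lowest at both ends, with -0.06 in the first 10 Mb and -0.02 in the last. In between it had 0.02, 0.06, 0.15, 0.05, 0.11 and 0.05, so that its block from 40 to 50 Mb was below the one from 20 to 30 Mb and level with the one from 60 to 70 Mb.

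**Figure D1:**
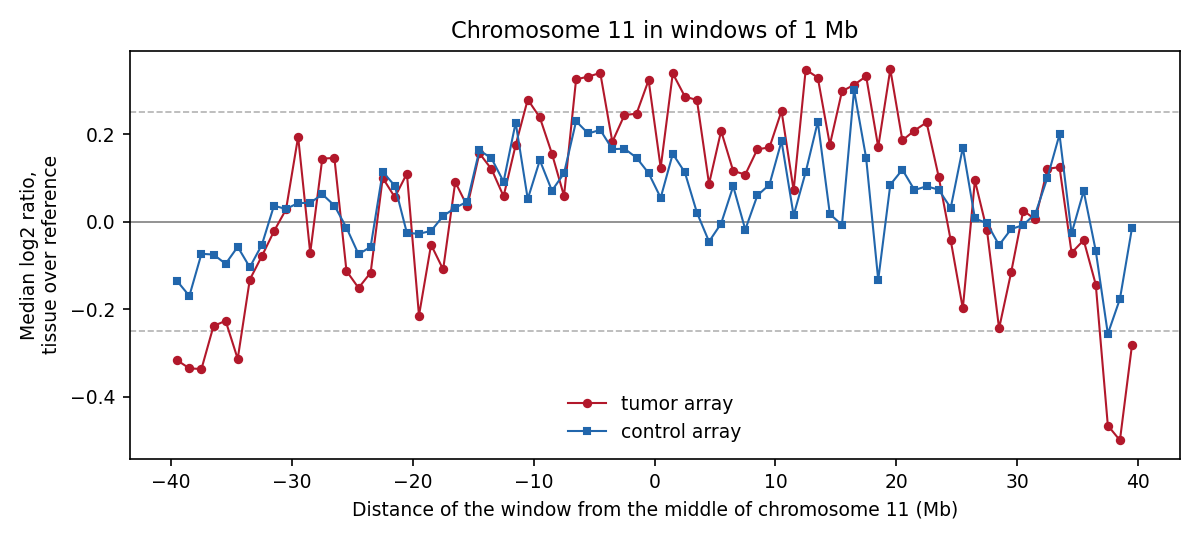
Median log2 ratio of tissue over reference in the 80 windows of 1 Mb on chromosome 11, for the tumor array (red circles) and the control array (blue squares), against the distance of the window from the middle of the chromosome in Mb. Dashed lines mark 0.25 and -0.25, and the tumor array runs from -0.50 near the right end to 0.35 right of the middle while the control array stays between -0.26 and 0.30.

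All 80 windows of 1 Mb held enough probes to be summarised, between 43 and 102 per window on the tumor array. On the tumor array 15 windows had a median of at least 0.25, or 18.8% of the chromosome's windows, whereas 9.46% of the windows of chromosomes 1 to 18 did. A median of -0.25 or lower was found in 7 windows, or 8.75%, against 12.1% of the autosomal windows. The split between high and low moved with the processing: centring on the mode gave 10 high and 11 low windows, normexp background correction 12 and 11, and the deposited log ratio 8 and 6. On the control array 1 window was high (autosomal background 0.699%) and 1 was low (autosomal background 0.326%), and centring on the mode turned this into 8 high and 0 low windows, and normexp into 6 and 3. No window on either array reached 0.58 or -1.0.

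The lowest windows of the tumor array lay at the ends. The window from 78 to 79 Mb had a median of -0.50 (SD over 74 probes 0.37), and that from 77 to 78 Mb had -0.47 (SD over 81 probes 0.34). On the control array the same windows stood at -0.18 and -0.26 and were the 2 lowest there too. Under normexp they were at -0.63 and -0.51 on the tumor and at -0.40 and -0.32 on the control array. At the other end, the first 3 windows had -0.32, -0.34 and -0.34 on the tumor array and -0.14, -0.17 and -0.07 on the control array. Normexp gave -0.34, -0.31 and -0.39 on the tumor and -0.23, -0.14 and -0.28 on the control array. The 5 highest tumor windows were all between 35 and 60 Mb. They were those from 59 to 60 Mb (0.35, SD over 72 probes 0.49) and from 52 to 53 Mb (0.35, SD over 75 probes 0.67), followed by those starting at 35, 41 and 57 Mb with 0.34, 0.34 and 0.33. These high windows had 0.08, 0.11, 0.21, 0.16 and 0.15 on the control array, all above 0. The highest windows of the control array started at 56, 33 and 53 Mb, with 0.30, 0.23 and 0.23, and were at 0.31, 0.33 and 0.33 on the tumor array. With the deposited log ratio they had 0, 0.11 and 0 on the control and 0.27, 0.11 and 0.16 on the tumor array. In the windows starting at 56 and 53 Mb, 47.6% and 30.5% of the control array probes were well above background in both channels. A deposited median of exactly 0 there need not be a measured ratio. Among probes well above background the control array had 0.14, 0.18 and 0.11 and the tumor array 0.31, 0.27 and 0.34. Between neighbouring windows the largest step of the tumor array was at 20 Mb, from 0.11 down to -0.21, where the control array stayed at -0.03 on both sides. The next was at 77 Mb, from -0.14 to -0.47, where the control array went from -0.07 to -0.26. With a trend on probe brightness removed, as described below, these steps went from -0.0034 to -0.12 and from -0.13 to -0.20, and a step at 52 Mb, from -0.09 to 0.13, was larger.

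Window by window, both arrays moved together on chromosome 11. The medians were above 0 on both arrays in 46 windows and below 0 on both in 21, so that 13 of 80 differed in sign. All 7 low tumor windows were below 0 on the control array, and 14 of the 15 high ones were above 0 there. The Pearson correlation of the window medians was 0.76 and Spearman's rho 0.74 over 80 windows, which share probes, probe composition and neighbours and are therefore not independent. The tumor array was farther from 0 in 67 windows, and the SD over windows was 0.207 against 0.105, a ratio of 1.98. Over all 2145 autosomal windows the SDs were 0.197 and 0.0954. Single probes agreed far less, with a correlation of 0.24 over 6107 probes.

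**Figure D2:**
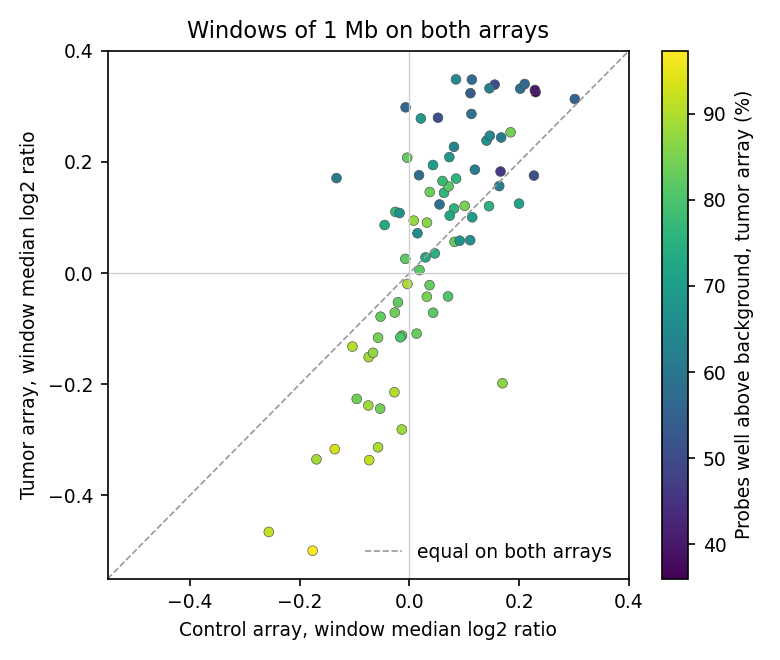
Each point is a window of 1 Mb on chromosome 11, with its median log2 ratio on the control array (x axis) and on the tumor array (y axis), coloured by the percentage of its probes well above background in both channels of the tumor array. The points rise steeply along the dashed line of equal values, with windows of many bright probes at the lower left, of few at the upper right, and the window at 0.17 on the control array and -0.20 on the tumor array apart at the lower right.

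The height of a window moved with the brightness of its probes. In the first 10 Mb the median signals on the tumor array were 92.9 for tissue and 186 for reference, and 86.9% of the probes were well above background in both channels. From 30 to 40 Mb, where the ratio was high, the signals were 32.5 and 46.9, and 60.8% were well above background. On the control array the share was 87.0% in the first 10 Mb and 53.1% from 30 to 40 Mb, and the SD over probes was 0.44 and 0.65. Over the 80 windows, the tumor medians had a correlation of -0.92 with the mean log2 reference signal on the control array, and the control medians one of -0.78 with that on the tumor array. With a trend on this local brightness removed, the SD over windows was 0.0788 on the tumor and 0.0639 on the control array, and 0 windows passed 0.25 in either direction. The correlation between the arrays was then 0.13. Of the 80 windows, that from 78 to 79 Mb was the lowest of the tumor array before removal, and it was at -0.12 afterwards. After removal the lowest was that from 77 to 78 Mb, at -0.20. What part brightness has in the ratios was not tested beyond these values.

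**Figure D3:**
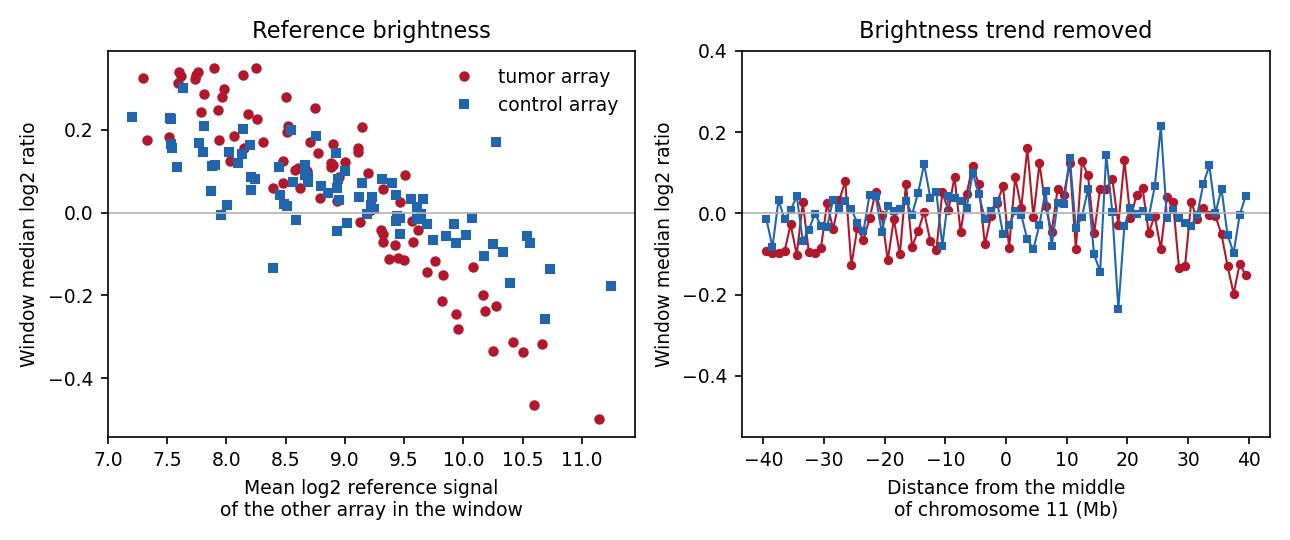
Left, median log2 ratio of each 1 Mb window against the average log2 reference signal that the other array had in that window, for the tumor array (red circles) and the control array (blue squares). Right, the window medians along chromosome 11 (distance from its middle in Mb) after removal of the brightness trend, where the tumor array lies between -0.20 and 0.16 and the control array between -0.23 and 0.21.

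The low ends were set against the other autosomes. Probes in the outer 5 Mb at both ends of chromosome 11 had a median of -0.28 on the tumor array and those of the interior 0.10, a difference of -0.38. The corresponding difference on the control array was -0.15. Normexp, whose offset lowers bright probes against dim ones after centring, gave -0.43 on the tumor and -0.29 on the control array. The deposited log ratio gave -0.32 and -0.09. Low ends were not particular to chromosome 11, since the difference was -0.37 on chromosome 8, -0.34 on chromosome 2 and -0.33 on chromosome 4 of the tumor array, and -0.12 on chromosome 2 of the control array. The values of chromosome 11 were the lowest of the 18 autosomes by a small margin on both arrays, where the tumor array ranged up to -0.02 and the control array up to -0.0022. For the chromosomes closest in number of probes, the difference was -0.20 on chromosome 16 and -0.02 on chromosome 10 of the tumor array, and -0.07 and -0.0024 on the control array. The rank held with the brightness trend removed, where the differences shrank to -0.11 and -0.02. It was the second lowest on the tumor array among probes well above background and with the control array subtracted, and the fourth lowest on the control array with the deposited log ratio. These ends were compared after their low values had been seen, and no test between chromosomes was possible within 1 array.

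**Figure D4:**
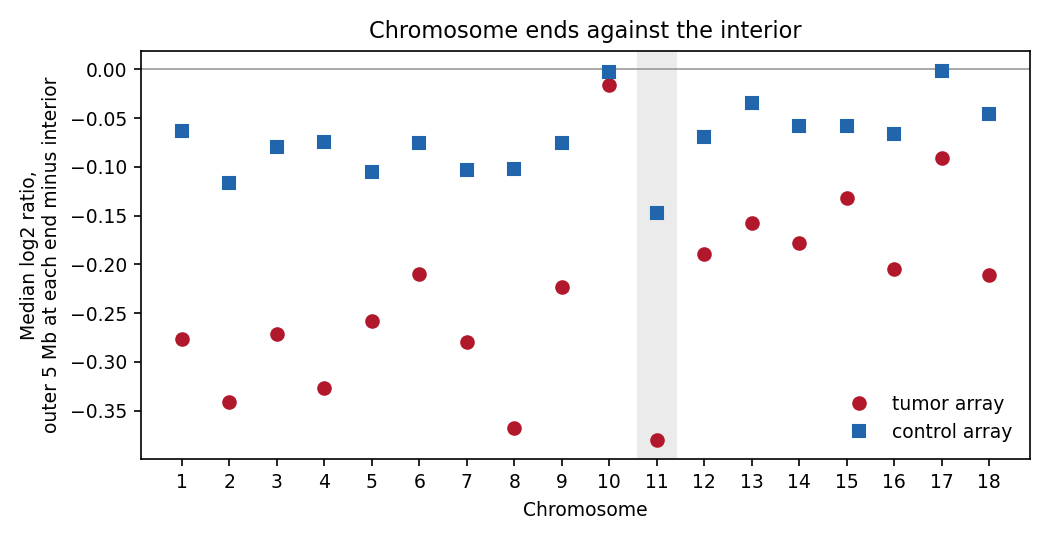
Difference between the median log2 ratio of the outer 5 Mb at both chromosome ends and that of the interior, for each of the 18 autosomes on the tumor array (red circles) and the control array (blue squares). Chromosome 11, shaded, has the lowest value on both arrays, -0.38 and -0.15.

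Longer intervals were called by a score that adds up the log2 ratios of neighbouring probes and scales the sum by the noise and by the root of the probe number. A call needed 3 or more probes, a score of 6 or more and an average of 0.25 or more in size. The search takes the highest score among the intervals whose mean reaches this limit. Wide weak intervals can thereby extend until their mean is down at the limit, so that several of their means lie close to 0.25 by construction. On the tumor array 12 intervals were called, 7 high and 5 low. The high ones held 28.8% of the chromosome's probes (autosomal background 14%) and the low ones 12.8% (autosomal background 18.5%). The highest score, 17.1, belonged to a high interval of 718 probes from 32627526 to 43632295, which averaged 0.26 (SD 0.62) and stood at 0.20 on the control array. Next came the low interval at the right end, 222 probes from 76816626 to 79497320 that averaged -0.41 (SD 0.36, score 15.1) and -0.10 on the control array. The left end was called from 31451 to 6088395, where 449 probes averaged -0.25 (SD 0.40, score 13.3) and -0.04 on the control array. A further high interval, 412 probes from 52069176 to 58086345, averaged 0.25 (SD 0.59, score 12.7), while the control array had 0.14. Inside the right part of the chromosome, 102 probes from 68244651 to 69344520 were low on the tumor array, at -0.31 (SD 0.49), a region picked out after its values were seen. Their mean on the control array was 0.05 and their median -0.05, and under normexp 31 probes from 68215051 to 68562895 were called low there, at -0.37. Of the high intervals the largest average, 0.46 (SD 0.45), was found for 31 probes from 48202676 to 48517220, with 0.14 on the control array. No interval was called there under normexp (average 0.23), among probes well above background (0.36) or with mode centring (0.41). Of the 12 tumor intervals, 8 were overlapped by a call of the same direction under normexp and 8 among probes well above background, both ends and the long high intervals from 32627526 and from 52069176 among them. The long high intervals are dim, with reference signals of 39.7 and 39.0, and the ends bright, with 251 and 350. The offset in normexp moves dim stretches up against bright ones, so its calls are no separate support for these 4. With the brightness trend removed only 2 of the 12 were overlapped by such a call. Both ends and the long high intervals lost their calls, with averages of -0.04 at the left end, -0.13 at the right end and 0.02 in both high intervals. The intervals from 48202676 and from 68244651 lost their calls as well, with averages of 0.30 and -0.23, and the rest that did averaged between 0.01 and 0.14.

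On the control array 10 intervals were called, all high, with 19.7% of the probes (autosomal background 5.28%), and 0 low ones (autosomal background 0.298%). Normexp gave 4 high and 4 low intervals instead, and the low ones included 204 probes from 78626 to 2830545 (-0.26) and 206 probes from 76807376 to 79306770 (-0.33), at the same ends as on the tumor array. These ends are bright, with control array reference signals of 212 in the first window and 207 and 321 from 77 to 79 Mb, against 74.2 on the chromosome. Normexp with its offset lowers bright probes against dim ones after centring, so these low calls cannot show whether the control ends are low. Of the 10 high intervals, 2 were overlapped by a high call under normexp and 3 among probes well above background. The highest score there was 11.8, for 390 probes from 32338001 to 38974920 that averaged 0.25 (SD 0.68) and also 0.25 on the tumor array. Among probes well above background the average was 0.15 and nothing was called there. In second place, 228 probes from 27467876 to 30276220 averaged 0.29 (SD 0.68, score 10.2), and 0.25 on the tumor array. Among probes well above background the average was 0.19, and a part was still called. Then 83 probes from 56400951 to 57700620 averaged 0.42 (SD 0.59, score 8.99), and 0.33 on the tumor array. This average was 0.19 among probes well above background and 0.24 under normexp, without a call under either. Intervals from 25101726 to 26593795 and from 63212651 to 64236670 scored 7.34 and 6.61. Their averages, 0.32 and 0.29, were 0.20 and 0.11 under normexp, where neither was called, and the latter was 0.13 among probes well above background and not called. The largest mean on the control array, 1.12 (SD 0.85), came from 6 probes between 30597151 and 30675820, where the tumor array had 0.37. It was 0.61 over the 4 of these probes well above background in both channels and 0.45 under normexp, and the interval was called under neither. High intervals of both arrays shared 13.4 Mb, which is 54.9% of the high length on the tumor array and 78.0% of that on the control array. After removal of the brightness trend 2 intervals were called on the tumor array, the short low ones described below, and 2 on the control array. The 8 control intervals that no longer had a call then averaged, in order of position, 0.22, 1.03, 0.11, 0.11, 0.27, 0.26, 0.13 and 0.23. Some of these averages thus stayed about as large although the call was lost.

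Strong single probes were mostly dim. On the tumor array 173 probes were at 1 or higher (autosomal background 2%) and 197 at -1 or lower (autosomal background 3.03%), and 18.9% of these 370 were well above background in both channels. The control array had 299 (autosomal background 3.56%) and 147 (autosomal background 2%), of which 12.8% were. On both arrays together 29 probes were at 1 or higher and 17 at -1 or lower, while 28 were low on the tumor array and high on the control array and 7 the other way round. The autosomal backgrounds of these 4 patterns were 0.404%, 0.366%, 0.258% and 0.0796%, against 0.475%, 0.278%, 0.458% and 0.115% of the 6107 probes of chromosome 11. Runs of at least 3 neighbouring probes, all past 1 with the same sign, were found 2 times on the tumor array and 1 time on the control array, all high. Over the autosomes, high runs held 0.0107% of the tumor array probes and low runs 0.0131%, against 0.0178% and 0% of those of the control array. Under normexp none of these 3 runs was called, and their averages lay between 0.58 and 0.60. The offset of 50 in normexp pulls the ratios of dim probes towards equal signals in both channels. After centring such ratios lie above 0, because the reference was brighter than the tissue over the autosomes. This loss therefore cannot show whether the runs hold. On the tumor array the run from 29268851 to 29296645 had log2 ratios of 1.09, 1.09 and 2.09, and 0 of its 3 probes were well above background in both channels. The run from 34902101 to 34930820 had 1.22, 1.29 and 1.09, with 1 such probe. The control array run from 28181051 to 28206070 had 2.24, 1.86 and 1.04, with 0 such probes. No run was called at these positions on the other array, where the measured means were -0.14 (SD 1.19), 0.19 (SD 0.25) and -0.39 (SD 0.65). There too only 0, 1 and 0 of the 3 probes were well above background in both channels, so that these signals cannot show whether the other array differed.

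A low interval of 3 probes was called on the tumor array from 65312401 to 65337420, with a measured average of -2.39 (SD 1.40). The average was -0.66 under normexp, where only a wider interval of 59 probes was called. Among probes well above background no call of these 3 probes was possible, since only 1 of them passed that filter. Its probes had log2 ratios of -0.77, -3.11 and -3.29 on the tumor array and of 0.26, 2.44 and 1.28 on the control array. The second and the third probe, 9.25 kb apart, had background-subtracted tumor signals of 2.06 and -1.42, not well above background, beside reference signals of 66.6 and 74.9. Their ratios on the tumor array are therefore limits. After centring, which the signals given here do not include, the reference was at least 1.82-fold and 2.08-fold above the tumor there. The lowest tissue signal well above background was taken as the floor. On the control array the same probes were well above background in both channels, with tissue signals of 84.3 and 79.3 beside reference signals of 31.1 and 64.4. Thus the tumor was below its reference and the control tissue above its own at this position. Such a pair of neighbouring probes, low past 1 on the tumor array and high past 1 on the control array, was found 1 time on chromosome 11 and 5 times over all autosomes, and the opposite pair 0 times. These pairs were counted after the values had been seen, and by measured ratios. At the second probe here the limit of 1.82-fold falls short of a log2 ratio past 1 in size.

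The pair lay inside a wider stretch that was called high on the control array, from 65292051 to 65804545. Its 24 probes averaged 0.53 (SD 0.63) on the control array and were all well above background in both channels there. On the tumor array they averaged -0.37 (SD 0.95), and 19 were well above background. Without the pair, the remaining 22 probes averaged 0.41 (SD 0.47) on the control array and -0.11 (SD 0.39) on the tumor array. The ratio was lower on the tumor array for 20 of the 24 probes. The stretch was picked for its high ratios on the control array, which in itself favours lower values on the tumor array. The window from 65 to 66 Mb, which contains the stretch, showed the largest difference between the arrays on the low side. Its median was -0.20 on the tumor and 0.17 on the control array, and -0.31 and -0.06 under normexp. Next on this side were the windows from 78 to 79 Mb and from 79 to 80 Mb, with tumor minus control differences of -0.32 and -0.27. On the other side the windows starting at 55, 58 and 59 Mb were 0.31, 0.30 and 0.26 higher on the tumor array as differences of medians, and 0.25, 0.14 and 0.18 higher as medians of the differences probe by probe. Of these, the first 2 were at -0.01 and -0.13 on the control array, and at 0.18 and 0.15 under normexp, where the tumor array had 0.27 and 0.20. After removal of the brightness trend the control array called the same 24 probes, with a mean of 0.58, whereas under normexp their mean fell to 0.18 and no interval was called there.

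**Figure D5:**
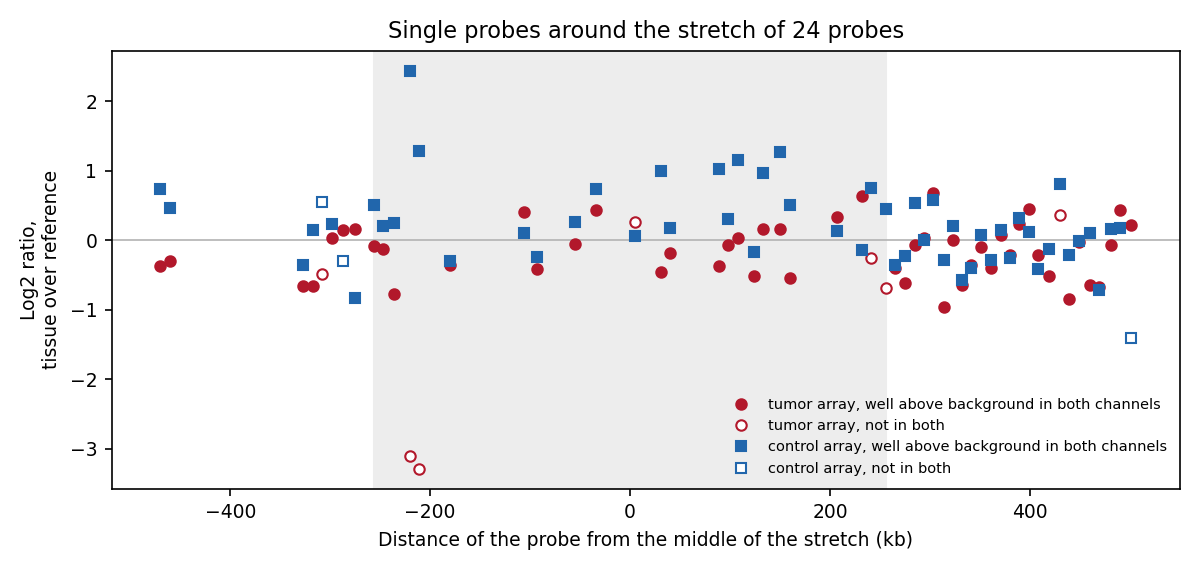
Log2 ratio of single probes around the 24-probe stretch (grey) on chromosome 11, against the distance from its middle in kb, for the tumor array (red circles) and the control array (blue squares). Filled symbols are well above background in both channels, and the pair at -3.11 and -3.29 on the tumor array stands opposite 2.44 and 1.28 on the control array.

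A second short low interval of the tumor array, from 69765351 to 69785745, had log2 ratios of -1.17, -2.15 and -0.87. The control array had -0.95, -0.72 and 0.31 at these probes, and 1 of the 3, the last, was well above background in both channels of the tumor array. At the first and the second probe the tumor signals, 6.06 and 4.02, were not well above background. With the same floor and centring as above, the reference was not shown to exceed the tumor at these probes, and no fold is given. The average of the 3 probes, -1.40, became -0.17 under normexp, and the interval was then not called. Among probes well above background it could not be called, since only 1 of the 3 passed that filter.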

How the data were processed

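Genomic DNA of 1 tumor and 1 control tissue was measured on 2-colour Agilent arrays. Spots had been quantified by the authors in Feature Extraction (Agilent, 11.0.1.1), and the intensity values were deposited per spot, as median signals and as background-subtracted signals scaled by a linear dye factor. The deposited files also give a log10 ratio (red over green), and the deposited series table holds the same log10 values. Probe flags were deposited as other values of 0 or 1. The genome build of the probe positions is not given in the sources used here. The array format differs between the sources, and each file was used as it stands.

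Log2 ratios of Cy3 over Cy5 processed signals were formed without control and outlier-flagged spots and centred on the median of chromosomes 1 to 18, without loess or quantile normalization. Windows of 1 Mb needed 5 probes. The limit on the interval mean was applied during the search, because a limit applied afterwards drops strong stretches inside wide weak ones. The search was tested on simulated data. The windows, runs and intervals named were the most extreme ones by a rule on rank. The chromosome, lists and rules were chosen with earlier results of these data known. Alternatives are given in the closing section. The brightness trend was a lowess fit (fraction 0.3) on local brightness, the average log2 reference signal on the opposite array up to 250 kb away. Background correction by normexp (offset 50) was run on median signals. Its offset pulls the ratios of dim probes towards equal signals in both channels, which lie above 0 after centring. Dim stretches thereby rise against bright ones. The number of arrays limits the precision. Computation used R 4.3.3 (limma 3.58.1) and Python 3.11.15 (statsmodels 0.14.6, numba 0.67.0, pandas 2.3.3, numpy 2.4.6, scipy 1.17.1, matplotlib 3.10.9).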

Additional observations from a re-analysis of the deposited data

Results flagged for a closer look

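Regions of chromosome 11 that stood above 0 on 1 array and below 0 on the other were noted, and with 1 array per tissue none of these differences was tested. The window from 65 to 66 Mb had a tumor minus control difference of -0.37. In the windows from 55 to 56 Mb and from 58 to 59 Mb the differences were 0.31 and 0.30, and 0.25 and 0.14 as medians of the probe-by-probe differences. In all 3 windows the control median changed sign under normexp, so that both arrays then stood on the same side of 0. The tumor and control medians were then -0.31 and -0.06 from 65 to 66 Mb, where a difference remained. They were 0.27 and 0.18 from 55 to 56 Mb, and 0.20 and 0.15 from 58 to 59 Mb. After centring, the offset in normexp raises dim windows against bright ones. The median reference signal of the control array was 153 from 65 to 66 Mb, and 35.3 and 38.3 in the other windows. These changes of sign therefore cannot show whether the arrays differ there. The low tumor interval from 65312401 to 65337420 averaged 1.33 on the control array, and the control interval from 65292051 to 65804545 averaged -0.37 on the tumor array. Without 2 probes whose tumor signal was not well above background the latter was -0.11, and under normexp the control interval fell from 0.53 to 0.18 and was not called. The tumor interval, whose average rests on the same 2 probes, went from -2.39 to -0.66 under normexp. The low tumor interval from 68244651 to 69344520 averaged 0.051 on the control array, where its median was -0.05 and normexp called part of it low. The tumor run from 29268851 to 29296645 averaged -0.14 on the control array, and the control run from 28181051 to 28206070 averaged -0.39 on the tumor array, with 0 of 3 probes well above background in both channels of either array.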

How the results depend on the processing

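No paired analysis was possible because each tissue has 1 array. Values were called unchanged when a count or an SD over windows stayed within 1.5 times, and a median or an end difference within 1 SD of the window medians; 98 of 157 did, and the chromosome medians did so under every alternative computed for them. With the brightness trend removed, the SDs over windows were 0.0788 (tumor) and 0.0639 (control), 0 windows passed 0.25, 0 runs and 2 intervals per array were left, and the ends differed from the interior by -0.11 and -0.017. The deposited log ratio and the series table gave 8 high tumor windows, 0 high control windows and a control SD of 0.0689. Normexp gave 11 low tumor windows, 6 high and 3 low control windows, 0 runs, 20 tumor intervals and a control end difference of -0.29. Among probes well above background there were 0 runs, 7 tumor and 3 control intervals and 0 high control windows. Centring on the mode gave 11 low tumor windows, 8 high and 0 low control windows and 2 control runs. With the control array subtracted, the SD was 0.117, with 2 high and 2 low windows and 4 runs. A window limit of 0.4 left 0 high and 2 low tumor windows and 0 control windows. Windows of 0.5 Mb gave 33 high and 18 low on the tumor array and 6 high on the control array, and windows of 5 Mb gave 2, 2 and 0, with 0 low control windows. A run limit of 0.75 gave 17 tumor and 16 control runs, and a limit of 1.5 or 4 probes per run gave 0. A score of at least 12 left 4 tumor and 0 control intervals, and the limit applied after the search 5 and 0. The end difference was tried under alternatives chosen after seeing the data. Apart from the stricter or wider limits, the cause was not tested. Among the named windows, runs and intervals, 402 of 501 values stayed within 1 SD of the window medians. The sign changed for 11 values, all of them under 0.25 in size and 10 of them on the control array, 5 with the brightness trend removed, 3 under normexp, 2 with mode centring and 1 among probes well above background. Both channels were well above background for 74.5% (tumor) and 70.4% (control) of the probes, and the ratios of the others rest on at least 1 signal near background.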
